A study of Homo sapiens with 4 samples.

Results

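The genes described here are the feedback inhibitors and early response genes of the mitogen-activated protein kinase (MAPK) pathways. They were chosen by symbol: every DUSP gene with a number, SPRY1 to SPRY4, SPRED1 to SPRED3, FOS, FOSB, FOSL1, FOSL2, JUN, JUNB, JUND, EGR1 to EGR3, IER2, IER3, ETV4, ETV5, PHLDA1 and MYC. The rule found 47 of the 57879 genes listed in the files. The RNAseq libraries were made from T24, a human line of bladder carcinoma, whose cells carried an empty vector (EV, labelled control) or a construct of the TET1 catalytic domain (TET1-CD, labelled TET1CD), with 2 libraries in each group. The construct was delivered by a lentiviral vector and infected cells were selected with puromycin, and whether a line is a pool or a clone is not stated. All libraries are from cells in RPMI with 10% FCS, and no label gives a time, a serum starvation or a growth factor stimulus, so the levels below are those of cells kept in serum. The source label of both groups also reads induced, which is not explained. Whether the libraries of a group come from separate cultures is not stated, so p-values measure the spread between these libraries, which may be technical.

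In the MAPK pathways, a growth factor receptor activates RAS, RAF and MEK in turn, and MEK phosphorylates ERK. ERK then switches on early response genes within minutes, through transcription factors of the ETS family and SRF. Many of the genes that follow are brakes: dual-specificity phosphatases (DUSP) take the phosphates off ERK, JNK or p38, and Sprouty (SPRY) and SPRED proteins dampen the signal between the receptor and RAF. T24 cells carry an activated HRAS oncogene. TET1 is a dioxygenase that oxidises 5-methylcytosine in DNA, and its catalytic domain alone keeps this activity.

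TET1 itself had 111 and 83 counts in EV against 2939 and 3310 in TET1-CD. Its log2 fold change was 5.02 (standard error, SE, 0.08, adjusted p = 4.90e-10, edgeR), and the files do not separate the construct from the endogenous transcript. The deposited counts summed to between 17442143 and 20295266 fragments per library, and the totals of the groups overlapped. A library with 3 counts of a gene, taken here as the floor, stands at 0.148 to 0.172 CPM, and this floor covers counting error only. The label was checked against markers. KRT7, KRT8 and KRT18 had at least 10759 counts in every library, and VIM and FN1 at least 43958. The urothelial genes UPK1A, UPK1B, UPK2 and UPK3A had at most 6. Other epithelial markers were low: KRT5 was at 0 in every library, and CDH1 and TP63 had at most 2 counts. EPCAM had 46 to 86, KRT19 66 to 169, GATA3 19 to 46 and PPARG 363 to 461. Of the leukocyte markers, PTPRC and CD3E had at most 2 counts, and CD14 had 13 and 15 in EV against 8 and 12 in TET1-CD. Of the endothelial markers, VWF had at most 6, and CDH5 had 9 and 10 in EV against 13 and 22 in TET1-CD. CD14 and CDH5 did not pass the test. KRT7, KRT18, KRT19 and GATA3 rose in TET1-CD cells with adjusted p under 0.05 by edgeR. These were 4 of 7 epithelial markers tested (57.1%, against 10.0% of all genes tested that were higher). VIM and FN1 fell, 2 of 3 mesenchymal markers tested (66.7%, against 9.61% of all genes tested that were lower). KRT8 (log2 fold change -0.08), EPCAM (0.54), PPARG (0.10) and CDH2 (-0.04) did not pass. The part of these markers in the results below was not tested. In bulk RNA, fewer cells that express a gene and less RNA per cell cannot be told apart.

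The sequences that follow lie upstream of the 2 genes with the largest changes, SPRY1 and DUSP9. They are shown because TET1 acts on CpG sites where these are methylated, and the 2 stretches differ in their number of CpG sites. They were read from GRCh37, on the plus strand and 5′ to 3′, before the GENCODE release 44 start of the transcript that holds most counts of the gene, and lie in no annotated exon. Capitals mark CpG sites. For SPRY1 (transcript ENST00000339241) the stretch is chr4:124317706-124317949, 244 bases with 8 CpG sites, and it ends 6 bases before that start because other SPRY1 transcripts begin there. For DUSP9 (transcript ENST00000342782) it is chrX:152912407-152912656, 250 bases with 24 CpG sites. This stretch lies within the span of the gene in the files, which starts at 152907946 with another transcript.
SPRY1: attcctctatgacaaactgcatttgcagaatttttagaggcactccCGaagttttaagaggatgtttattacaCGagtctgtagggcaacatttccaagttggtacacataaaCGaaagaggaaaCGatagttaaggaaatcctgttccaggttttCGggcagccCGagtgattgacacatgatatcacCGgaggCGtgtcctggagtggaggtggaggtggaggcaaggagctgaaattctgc
DUSP9: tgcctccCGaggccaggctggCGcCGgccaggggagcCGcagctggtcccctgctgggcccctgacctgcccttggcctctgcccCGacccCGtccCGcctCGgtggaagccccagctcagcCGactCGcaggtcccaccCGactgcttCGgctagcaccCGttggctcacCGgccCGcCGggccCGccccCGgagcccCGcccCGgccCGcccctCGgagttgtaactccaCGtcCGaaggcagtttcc
The methylation of these stretches was not measured in these data.

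The most changed feedback gene was DUSP9, which rose from a low level, and the next was SPRY1, which fell 3.85-fold in TET1-CD cells. Of the 47 genes, 39 had enough counts for a test, and the test was edgeR's quasi-likelihood F test, with p-values adjusted by Benjamini-Hochberg over all 14573 genes tested. With adjusted p under 0.05, 5 of the 39 were higher in TET1-CD cells (12.8%, against 10.0% of all genes tested), namely DUSP9, DUSP23, DUSP1, DUSP5 and SPRY4. Another 5 were lower (12.8%, against 9.61% of all genes tested), namely SPRY1, DUSP10, ETV4, JUN and FOSL2. These shares are near those of all genes. Only SPRY1 and DUSP9 passed with a fold change of at least 2 (5.13% of the 39, against 3.77% of all genes tested). Most of these calls were lost when either TET1-CD library was left out, a fit in which only the EV libraries are replicates. The EV libraries differed more from each other than the TET1-CD libraries did (chi-square per gene 6.45 and 2.75). Each of the 10 genes that passed kept its direction in these fits, with a larger SE. FOSL2 went from -0.204 (SE 0.051) to -0.215 (SE 0.091) without TET1-CD replicate 1 and -0.193 (SE 0.093) without replicate 2. DUSP23 went from 0.510 (SE 0.136) to 0.637 (SE 0.164) and 0.365 (SE 0.173).

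Most differences were small. The log2 fold change of 27 of the 39 lay within 0.25 of 0, and 36 changed by less than 1.5-fold. The median log2 fold change was -0.081 over the 39 and 0.001 over all genes tested, and the median absolute log2 fold change was 0.185 and 0.163. In 30 of the 39 (76.9%, against 61.0% of all genes tested), the normalised counts of both TET1-CD libraries lay on the same side of both EV libraries, above in 12 and below in 18. Of these 30, 20 did not pass the test.

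**Figure D1:**
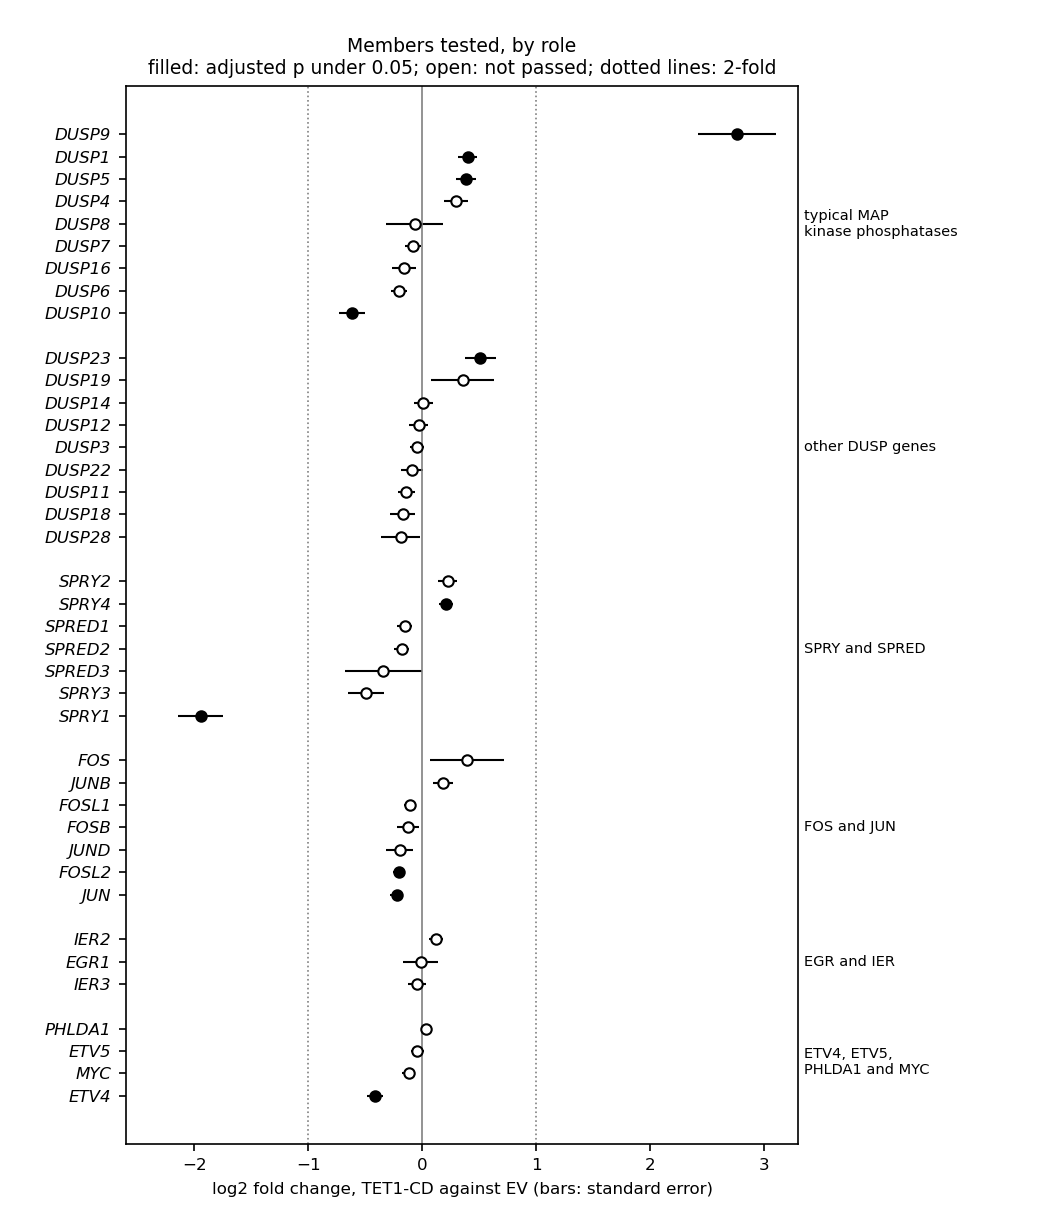
Log2 fold change of TET1-CD against EV (x axis) with its standard error (bars) for the 39 genes tested, grouped by role, where filled points passed with adjusted p under 0.05 and dotted lines mark 2-fold. DUSP9 at 2.77 and SPRY1 at -1.94 lie outside the dotted lines, and the other genes lie between them.

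By FPKM, a level scaled to transcript length and library size, the genes spanned from 0 to 318. The mean FPKM over the 4 libraries was at least 10 in 23 of the 47 genes, from 1 to under 10 in 11 and under 1 in 13. FOSL1 was the highest, with 318, 304.3, 297.9 and 289.7 FPKM in EV replicates 1 and 2 and TET1-CD replicates 1 and 2, followed by IER3 with 130.9, 155.1, 143.7 and 135.8. The libraries of the groups did not overlap for FOSL1 and overlapped for IER3. The 8 genes that were not tested had at most 8 counts in any library: DUSP2, DUSP15, DUSP26, EGR2 and EGR3 had some, and DUSP13, DUSP21 and DUSP27 were at 0 in all 4, which allows up to 3 counts in each.

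**Figure D2:**
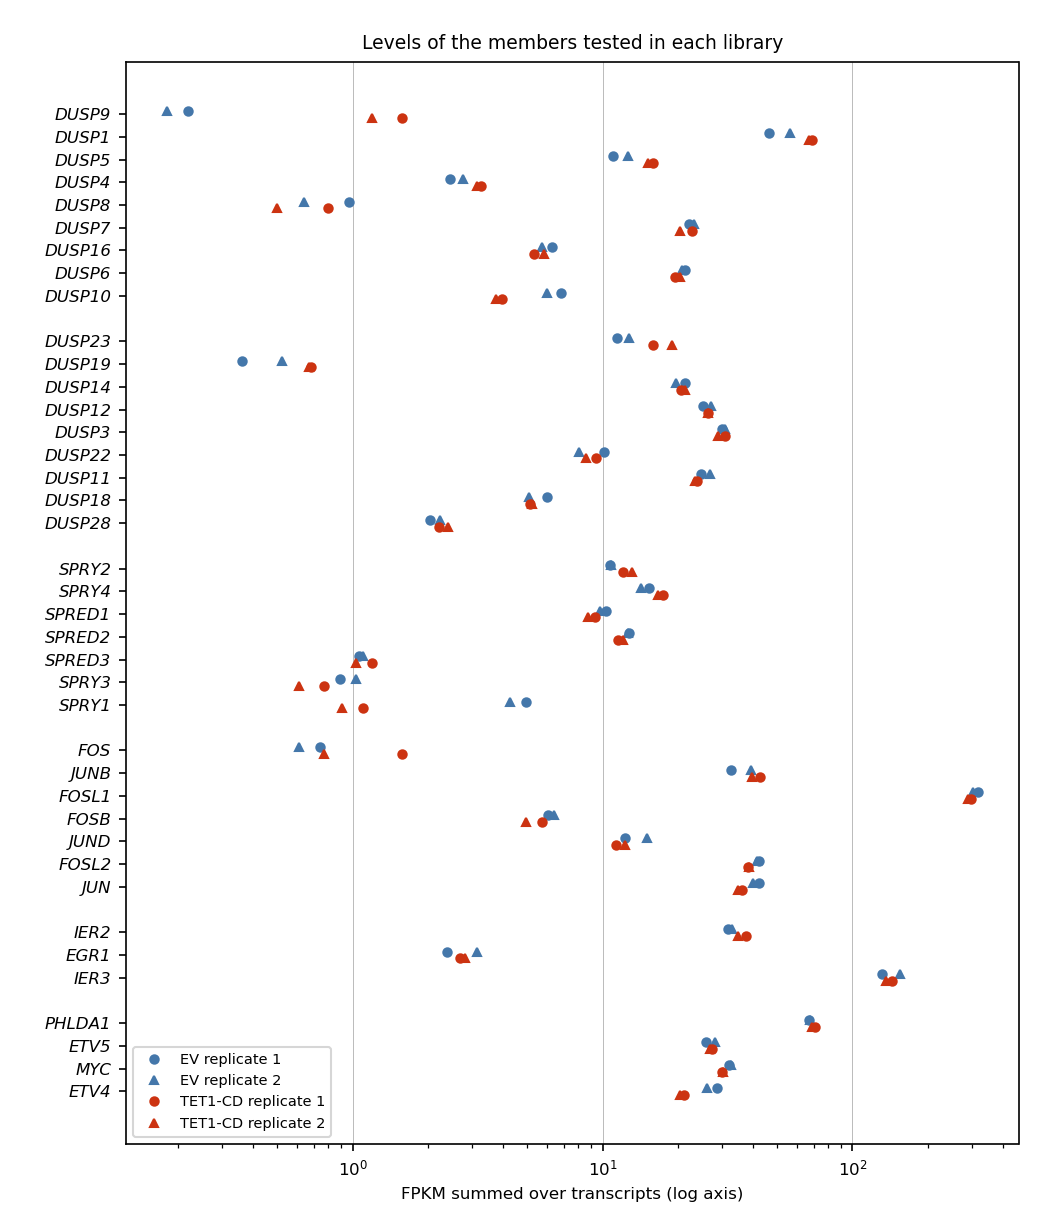
FPKM of the 39 genes tested (log x axis) in each library, where blue is EV, red is TET1-CD, circles are replicate 1 and triangles replicate 2. FOSL1 is the highest in every library, and DUSP9 and SPRY1 are the genes whose red and blue points lie furthest apart.

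The typical MAP kinase phosphatases carry a domain that docks on the kinase, and they differ in where they sit and which kinase they act on. Of the 10, 9 were tested, 3 rose, 1 fell and 5 did not pass (median log2 fold change -0.064). DUSP1, DUSP2, DUSP4 and DUSP5 are nuclear phosphatases induced by the pathway itself. DUSP1 (chr5:172195093-172198198, minus strand), which acts on JNK, p38 and ERK, had 1753 and 2127 TMM-normalised counts in EV against 2596 and 2515 in TET1-CD. This is a log2 fold change of 0.40 (SE 0.08, adjusted p = 0.00856, edgeR), or 1.32-fold. DUSP5 (chr10:112257596-112271302, plus strand), which acts on ERK, had 525.7 and 609.4 normalised counts in EV against 754.9 and 724.1 in TET1-CD. Its log2 fold change was 0.38 (SE 0.09, adjusted p = 0.0139, edgeR), or 1.31-fold. For both genes every TET1-CD library was above every EV library, and EV replicate 1 was the lowest. Both calls were lost without TET1-CD replicate 1 (adjusted p = 0.0929 and 0.134) and without TET1-CD replicate 2 (adjusted p = 0.0508 and 0.0617). Over the alternatives, the adjusted p ran from 3.42e-08 to 0.0929 for DUSP1 and from 3.25e-04 to 0.134 for DUSP5. Without EV replicate 1 the log2 fold change of DUSP1 was 0.26. DUSP4 had 248.6 and 282.1 normalised counts in EV against 335.5 and 316.4 in TET1-CD and did not pass (log2 fold change 0.30, SE 0.11, adjusted p = 0.0789, edgeR), and its adjusted p over the alternatives ran from 0.0212, without EV replicate 2, to 0.392, without TET1-CD replicate 1. DUSP2 had 0 and 1 counts in EV against 8 and 1 in TET1-CD, too few to test.

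DUSP6, DUSP7 and DUSP9 act mainly on ERK in the cytoplasm. DUSP9 (ENSG00000130829, chrX:152907946-152916781, plus strand) had 11 and 7 counts in EV against 66 and 56 in TET1-CD. After normalisation these were 8.83 ± 1.83 (SD, n = 2) and 61.6 ± 11.9 (SD, n = 2), a log2 fold change of 2.77 (SE 0.34, adjusted p = 5.23e-04, edgeR), or 6.81-fold. The groups were far apart, but the level stayed low, at 0.22 and 0.18 FPKM in EV against 1.58 and 1.2 in TET1-CD. The call held in all 10 alternatives where the gene was tested (adjusted p 1.92e-14 to 0.0127), and a filter of 10 counts in every library left it out because EV replicate 2 has 7. The transcript whose upstream sequence is shown above held 8.64 and 0.00 estimated counts in EV against 48.9 and 42.8 in TET1-CD, and ENST00000370167 held 2.36, 6.998, 17.1 and 13.2. DUSP6, the usual feedback phosphatase of ERK, was at 899.4 and 971.1 normalised counts in EV against 820.7 and 800.1 in TET1-CD. It did not pass (log2 fold change -0.21, SE 0.07, adjusted p = 0.0654, edgeR), and its adjusted p over the alternatives ran from 0.0172, without EV replicate 1, to 0.342, without TET1-CD replicate 2. The ratio of mean FPKM gave a smaller log2 fold change of -0.085. DUSP7 had a log2 fold change of -0.08 (SE 0.07) and overlapped between the groups.

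DUSP8, DUSP10 and DUSP16 act mainly on JNK and p38. DUSP10 (chr1:221874766-221915518, minus strand) fell, from 305.6 and 274.5 normalised counts in EV down to 195.4 and 184.3 in TET1-CD. The log2 fold change was -0.61 (SE 0.11, adjusted p = 0.00468, edgeR), which is 1.53-fold lower, and the groups did not overlap. The call was lost without TET1-CD replicate 2 (adjusted p = 0.0629), and the adjusted p over the alternatives ran from 1.99e-05 to 0.0629. DUSP16 at -0.16 (SE 0.11) and DUSP8 at -0.06 (SE 0.25) overlapped between the groups. Summed over the 10 typical phosphatases, the FPKM was 117.8 and 128.2 in EV against 142.4 and 137.9 in TET1-CD. DUSP1 made up 39.4% and 43.8% of this sum in EV against 48.6% and 48.7% in TET1-CD. DUSP9, in spite of its fold change, made up 0.187% and 0.14% in EV against 1.11% and 0.87% in TET1-CD.

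Most of the other DUSP genes encode smaller phosphatases without the docking domain, some of which act on other proteins or on RNA. Of the 14, 9 were tested, 1 rose and 8 did not pass, and the median log2 fold change was -0.047. DUSP23 (chr1:159750722-159752333, plus strand) had 152.8 and 174.4 normalised counts in EV against 210.2 and 253.7 in TET1-CD. The log2 fold change was 0.51 (SE 0.14, adjusted p = 0.0263, edgeR), or 1.42-fold, with no overlap. This call was not stable: DESeq2 gave an adjusted p of 0.109, and leaving out a library gave 0.0558 (EV replicate 1), 0.0518 (TET1-CD replicate 1) and 0.255 (TET1-CD replicate 2), in a range of 0.00182 to 0.255 over the alternatives. DUSP3, the most abundant of this group, had 2289 and 2353 normalised counts in EV against 2334 and 2161 in TET1-CD, which overlapped (log2 fold change -0.05, SE 0.06). DUSP11, a phosphatase of RNA, was at -0.14 (SE 0.08), DUSP12 at -0.03 (SE 0.09), DUSP14 at 0.01 (SE 0.08) and DUSP22 at -0.09 (SE 0.10), and none passed. The sparse DUSP19 and DUSP28 were at 0.36 (SE 0.28) and -0.19 (SE 0.17). DUSP28 and DUSP18 overlap the genes ANKMY1 and SLC35E4 on the opposite strand. Whether counting used the strand is not stated, so reads of such pairs may be shared.

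**Figure D3:**
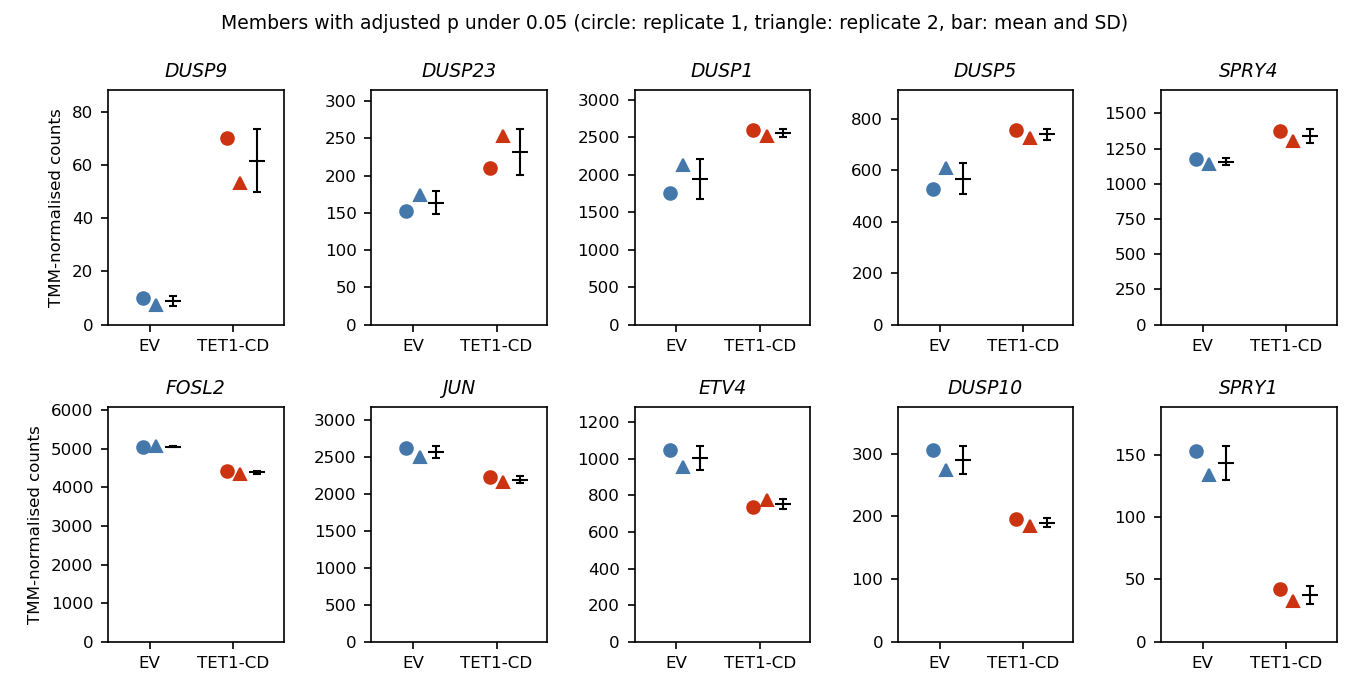
TMM-normalised counts (y axis, from 0) of the 10 genes that passed with adjusted p under 0.05, in EV (blue) and TET1-CD (red), where circles are replicate 1, triangles replicate 2 and black bars the mean and SD of the 2 libraries. In each panel the groups are apart, with the widest gaps for DUSP9 and SPRY1 and narrow ones for JUN, FOSL2 and SPRY4.

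Within the Sprouty family, SPRY1 fell and SPRY4 rose. Of the 7 SPRY and SPRED genes, all were tested, 1 rose, 1 fell and 5 did not pass. SPRY1 (ENSG00000164056, chr4:124317950-124324910, plus strand), an inhibitor of receptor tyrosine kinase signalling to ERK, had 166 and 124 counts in EV against 40 and 34 in TET1-CD. After normalisation these were 143.2 ± 13.7 (SD, n = 2) and 37.4 ± 7.18 (SD, n = 2), a log2 fold change of -1.94 (SE 0.20, adjusted p = 1.42e-04, edgeR), or 3.85-fold lower. The call held in all 11 alternatives (adjusted p 3.04e-21 to 0.00125), and both TET1-CD libraries were well below both EV libraries. The 3 SPRY1 transcripts with at least 10 estimated counts over the 4 libraries were each lower in both TET1-CD libraries: ENST00000339241 held 120.5 and 91.6 estimated counts in EV against 36.5 and 29.8 in TET1-CD, ENST00000515726 19 and 17 against 1 and 3.62, and ENST00000507703 26.4 and 15.4 against 2.46 and 0.

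SPRY4 (chr5:141689992-141706020, minus strand) had 1174 and 1139 normalised counts in EV against 1376 and 1307 in TET1-CD. The log2 fold change was 0.21 (SE 0.06, adjusted p = 0.0351, edgeR), or 1.16-fold. The call was lost with DESeq2 (adjusted p = 0.143), without TET1-CD replicate 1 (0.359) and without TET1-CD replicate 2 (0.165), in a range of 0.0174 to 0.359 over the alternatives. SPRY2 was at 424.4 and 432.8 normalised counts in EV against 481 and 518.8 in TET1-CD and did not pass (log2 fold change 0.22, SE 0.09, adjusted p = 0.102, edgeR). SPRY3 was at 149.1 and 174.4 in EV against 128.5 and 101.7 in TET1-CD (log2 fold change -0.49, SE 0.16, adjusted p = 0.0555, edgeR), and its adjusted p over the alternatives ran from 0.0104, with no filter, to 0.368, without TET1-CD replicate 2. The SPRED genes, which block the activation of RAF by RAS, were all lower in TET1-CD libraries by counts without passing. SPRED1 was at -0.15 (SE 0.07, adjusted p = 0.133), SPRED2 at -0.18 (SE 0.06, adjusted p = 0.0798) and SPRED3 at -0.34 (SE 0.34, adjusted p = 0.533), by edgeR. Without EV replicate 2 SPRED1 passed (adjusted p = 0.0352, in a range up to 0.67 over the alternatives), and without EV replicate 1 SPRED2 did (0.0488, up to 0.401). The ratio of mean FPKM gave SPRED2 -0.11 and SPRED3 0.05 on the log2 scale.

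The summed FPKM of the 4 SPRY genes overlapped between the groups, at 31.91 and 30.3 in EV against 31.39 and 31.31 in TET1-CD. The shares of all 4 did not overlap, but they add up to the whole, so they are not 4 separate observations. By normalised counts, the groups did not overlap in 61.0% of all genes tested. SPRY1 held 15.4% and 14.1% of the sum in EV against 3.5% and 2.91% in TET1-CD, while SPRY4 held 48.1% and 47% in EV against 55.4% and 53.1% in TET1-CD. SPRY2 held 33.7% and 35.5% in EV against 38.6% and 42% in TET1-CD, and SPRY3 2.79% and 3.4% in EV against 2.45% and 1.95% in TET1-CD. SPRY4 was the most abundant member in every library, and SPRY2 the next. These shares were not tested, since with 2 libraries against 2 an exact permutation test of a single value, two-sided, cannot go below p = 0.333.

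FOS and JUN proteins pair to form the transcription factor AP-1, whose make-up depends on which members a cell expresses. Of the 7 genes, all were tested, 2 fell and 5 did not pass. JUN (chr1:59246465-59249785, minus strand) had 2618 and 2499 normalised counts in EV against 2222 and 2157 in TET1-CD. Its log2 fold change was -0.23 (SE 0.06, adjusted p = 0.0195, edgeR), which is 1.17-fold lower. FOSL2 (chr2:28615315-28640179, plus strand) had 5044 and 5070 normalised counts in EV against 4423 and 4354 in TET1-CD, with a log2 fold change of -0.20 (SE 0.05, adjusted p = 0.0198, edgeR), or 1.15-fold lower. The groups did not overlap in either gene, and the changes were small. Both calls were lost without TET1-CD replicate 1 (adjusted p = 0.173 for JUN and 0.229 for FOSL2) and without TET1-CD replicate 2 (0.252 and 0.262), and the adjusted p over the alternatives ran from 0.00126 to 0.252 and from 0.00279 to 0.262. The ratio of mean FPKM gave FOSL2 a smaller log2 fold change of -0.12.

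FOSL1, which encodes the FOS partner FRA-1, was the most abundant of the group, at 9372 and 9014 normalised counts in EV against 8670 and 8379 in TET1-CD. It did not pass (log2 fold change -0.11, SE 0.05, adjusted p = 0.182, edgeR), and its adjusted p over the alternatives ran from 0.0264, without EV replicate 2, to 0.67, without TET1-CD replicate 2. FOSL1 held between 86.3% and 86.8% of the FPKM of the FOS family in every library. FOS itself, the best known early response gene, held only 0.202% and 0.173% in EV against 0.457% and 0.231% in TET1-CD, with 28 and 23 counts in EV against 38 and 28 in TET1-CD. At this depth no difference in FOS was detectable (log2 fold change 0.39, SE 0.32). Its most counted transcript, ENST00000303562, held 25.5 and 23 estimated counts in EV against 24.2 and 21.0 in TET1-CD. JUNB was at 0.19 (SE 0.09, adjusted p = 0.164, edgeR), and it depended on the EV library: 0.05 (adjusted p = 0.61) without EV replicate 1 and 0.32 (adjusted p = 0.0014) without EV replicate 2. JUND was at -0.20 (SE 0.12, adjusted p = 0.279, edgeR), and it too depended on the EV library: -0.37 (adjusted p = 0.0073) without EV replicate 1 and -0.015 (adjusted p = 0.934) without EV replicate 2. FOSB was at -0.13 (SE 0.10). In the JUN family, JUN held 48.4% and 42.5% of the FPKM in EV against 40% and 40.2% in TET1-CD, and JUNB 37.6% and 41.6% in EV against 47.4% and 45.7% in TET1-CD. By FPKM, JUN was thus the more abundant of the pair in both EV libraries, narrowly in EV replicate 2, and JUNB in both TET1-CD libraries. By normalised counts JUN was above JUNB in every library, at 2222 and 2157 against 1440 and 1339 in TET1-CD. This is a description without a test. FOSB and JUNB overlap ERCC1 and HOOK2 on the opposite strand.

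**Figure D4:**
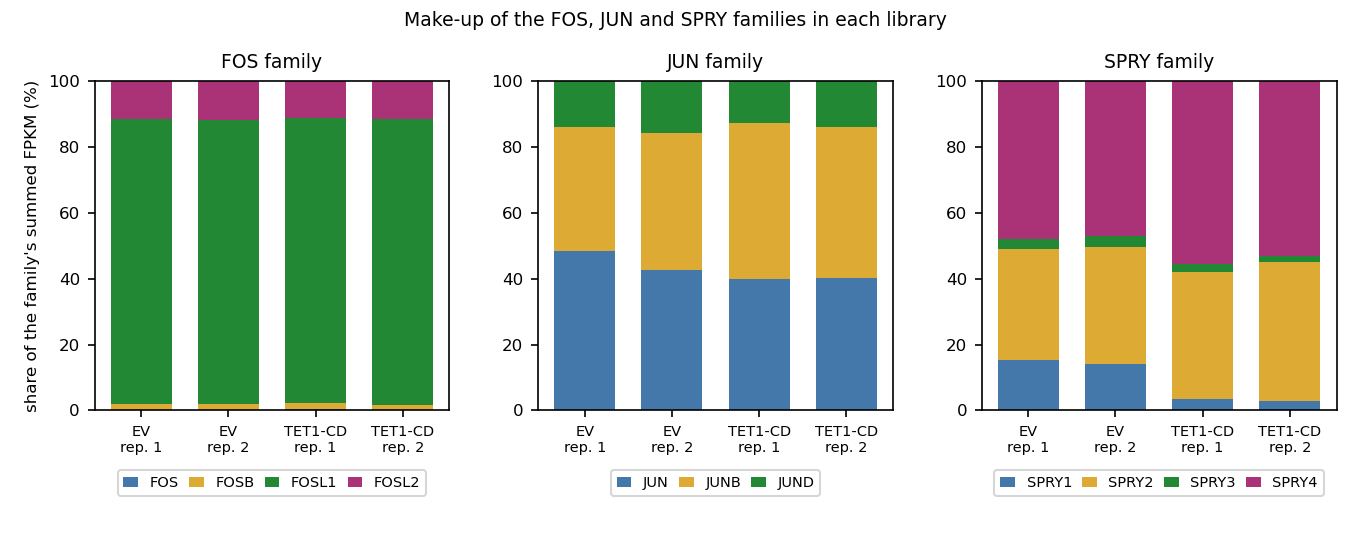
Share of the summed FPKM (y axis, %) that each member holds in the FOS, JUN and SPRY families, one bar per library. FOSL1 fills between 86.3% and 86.8% of the FOS family in all 4 libraries, and the SPRY1 share is 15.4% and 14.1% in EV and 3.5% and 2.91% in TET1-CD.

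The zinc finger factors EGR1 to EGR3 and the small proteins IER2 and IER3 are induced within minutes of a stimulus. Of the 5 genes, 3 were tested and 0 passed by edgeR or by DESeq2, or had an unadjusted p under 0.05 by edgeR, with log2 fold changes between -0.046 and 0.124. EGR1, a classical target of ERK through SRF, had 139.9 and 185.2 normalised counts in EV against 157.1 and 163.4 in TET1-CD, so the TET1-CD libraries lay between the EV libraries (log2 fold change -0.01, SE 0.15). IER3 had 3047 and 3628 in EV against 3325 and 3139 in TET1-CD, and again the groups overlapped (log2 fold change -0.05, SE 0.08). Its sign depended on the EV library used: without EV replicate 1 the log2 fold change was -0.17 (adjusted p = 0.0205), and without EV replicate 2 it was 0.08. IER2 was at 0.12 (SE 0.06, adjusted p = 0.19, edgeR). EGR3 had 1 and 1 counts in EV against 2 and 2 in TET1-CD, all under the floor, and EGR2 had 3 and 5 against 3 and 1.

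ETV4 and ETV5 are ETS factors whose expression follows ERK activity, PHLDA1 is another transcript that follows it, and MYC drives growth. Of these 4, all were tested, 1 fell and 3 did not pass. ETV4 (chr17:41605212-41656988, minus strand) had 1051 and 957.1 normalised counts in EV against 734.7 and 774.5 in TET1-CD. The log2 fold change was -0.41 (SE 0.07, adjusted p = 0.00398, edgeR), which is 1.33-fold lower, with no overlap. The call was lost without TET1-CD replicate 1 (adjusted p = 0.0864), and the adjusted p ran from 5.19e-06 to 0.0864 over the alternatives. ETV4 overlaps DHX8 on the opposite strand, whose estimated counts were 1474 and 1212 in EV against 1167 and 1389 in TET1-CD. Its relative ETV5 was at 1918 and 1881 normalised counts in EV against 1833 and 1861 in TET1-CD (log2 fold change -0.04, SE 0.06). PHLDA1, the most abundant of this group by counts, was at 7244 and 7319 in EV against 7577 and 7366 in TET1-CD (log2 fold change 0.04, SE 0.05), and MYC at 1367 and 1398 in EV against 1258 and 1289 in TET1-CD (log2 fold change -0.12, SE 0.06, adjusted p = 0.192, edgeR).

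The rest of the pathway was read from 3 lists. In a list of 51 kinases, adaptors and RAS regulators of the ERK, JNK and p38 pathways, 47 were tested, 5 were higher and 6 lower (23.4% passed, beside 25.6% of the genes above and 19.7% of all genes tested), and their median was -0.056 on the log2 scale. The only change over 2-fold was RPS6KA2, an RSK kinase downstream of ERK, with 89 and 55 counts in EV against 27 and 28 in TET1-CD (log2 fold change -1.36, SE 0.26, adjusted p = 0.00604, edgeR). By the ratio of mean FPKM it was -0.92, and its adjusted p ran from 2.17e-06 to 0.0489 over the alternatives. Among 39 other early response or ERK-responsive genes, 38 were tested, 7 were higher and 9 lower (42.1% passed), with a median of -0.026. ZFP36L1, a protein that destabilises mRNA, had a log2 fold change of -0.59 (SE 0.05, adjusted p = 5.98e-05), CTGF, a secreted matrix protein and target of YAP, one of 0.86 (SE 0.10, adjusted p = 3.14e-04) and BTG1, an antiproliferative factor, one of -0.62 (SE 0.08, adjusted p = 5.96e-04), by edgeR. All 15 transcription factors known to act on early response genes were tested, 1 was higher and 2 lower (20% passed). SRF, which is also among those 39 genes, had 1126 and 971 counts in EV against 1328 and 1308 in TET1-CD. Its log2 fold change was 0.35 (SE 0.07, adjusted p = 0.00834, edgeR). The call was lost without TET1-CD replicate 1 (adjusted p = 0.178, in a range of 4.47e-05 to 0.178). The ETS factor ETV1 was at -0.53 (SE 0.09, adjusted p = 0.00309) and ELK3, an ETS factor that binds SRF, at -0.33 (SE 0.06, adjusted p = 0.00366), by edgeR. ELK3 did not pass without TET1-CD replicate 1 (0.0682) or without TET1-CD replicate 2 (0.0857), in a range of 1.23e-06 to 0.0857.

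Sequence before transcript starts was described next, over windows of the 250 bases before the most counted transcript's start. Many of these windows overlap an annotated exon. Among the genes that passed, this holds for SPRY1, JUN, FOSL2, ETV4, SPRY4 and DUSP23. Windows were found for 14253 genes tested, 38 of them among the genes above. The median number of CpG sites was 22.5 in the 38 and 20 in all. Among the genes that passed, the count was 9 in SPRY1, 14 in JUN, 18 in both DUSP10 and SPRY4, 20 in ETV4 and 23 in DUSP23. It was 24 in both DUSP9, which rose, and FOSL2, which fell, 30 in DUSP1 and 32 in DUSP5. SPRY1 thus had the fewest CpG sites of the 10.

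**Figure D5:**
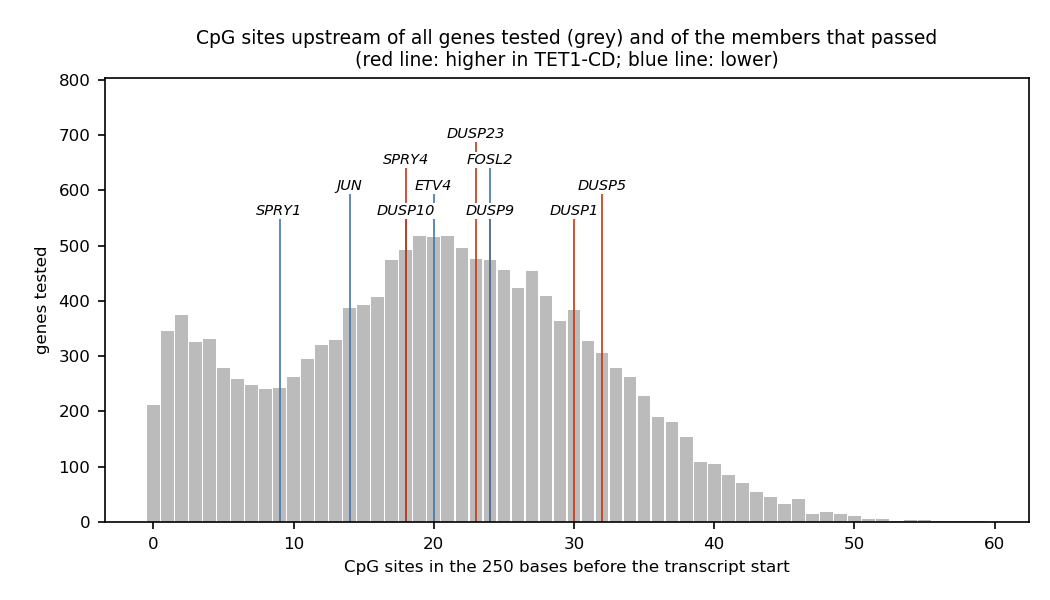
Number of CpG sites in the 250 bases before the transcript start (x axis) for 14253 genes tested (grey bars, y axis in genes), with red lines for genes that rose and blue lines for genes that fell among the 10 that passed. SPRY1 has the lowest count of the 10, with 9, and DUSP5 the highest, with 32.

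The CArG box, the site that SRF binds, was found in the windows of 2 of the 38 genes, DUSP5 and EGR1 (5.26%, against 1.04% of the windows of all genes tested). EGR3, which was not tested, held 1 box in its window. DUSP5 and EGR1 each held a pair of boxes. They are printed below with 5 bases on each side and the boxes in capitals, on the plus strand of GRCh37, since these genes gave different values, a rise of 0.38 in DUSP5 and -0.01 in EGR1 on the log2 scale. In DUSP5 (chr10:112257580-112257609) the boxes adjoin, from 80 to 61 bases before the GENCODE start, and the files place the start of the gene at 112257596, inside the second box. In EGR1 (chr5:137801058-137801099) they lie from 105 to 96 and from 83 to 74 bases before the start.
DUSP5: aacacCCATATTTGGCCTTATATGGgcagc
EGR1: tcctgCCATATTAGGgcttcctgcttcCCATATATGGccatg
The AP-1 motif TGANTCA, which reads the same on both strands as the CArG box does, was in 0 of the 38 windows and in 4.29% of all. A match is a run of letters and not a site of binding, and no match says only that these letters are absent from the window.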

How the data were processed

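RNAseq of T24 cells with 2 EV and 2 TET1-CD libraries was analysed. The authors deposited expected counts (estimated fragments that need not be whole) and FPKM values for 195700 transcripts of 57879 genes. The submitters' processing notes name cutadapt 1.9.1, HISAT2 2.0.1, HTSeq 0.6.1, DESeq2 and the build hg19 (GRCh37); the estimator of the expected counts and the strand setting are not given in the sources used here. Expected counts were summed per gene and rounded, FPKM summed per gene. Groups were compared with edgeR 4.0.16 in R 4.3.3 (glmQLFit, glmQLFTest, TMM, filterByExpr, no block), after tests on simulated data. Standard errors were obtained as |log2 fold change| / √F. The threshold was an adjusted p of 0.05.

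The members and lists were chosen with earlier results of these data known, so no list was tested. Genes were named by rule: members that passed or changed by at least 2-fold without overlap, the most counted of each role, TET1, and in each other list genes past 2-fold or else the 3 smallest p. Further members were named after their values were seen. Alternatives were DESeq2 1.42.0, limma-voom (limma 3.58.1), RLE factors, no factors (library size only), a filter of 10 counts in every library or none, a block for the replicate number, the ratio of mean FPKM and the omission of each library. Replicates differed by more than sampling noise (chi-square per gene 6.45 in EV and 2.75 in TET1-CD, 17.65 to 21.42 between groups). Upstream windows were read from GRCh37 with GENCODE release 44 starts, leaving out windows with unknown bases. PECAM1, a marker listed for endothelium, and one cell-cell junction gene are not reported here.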

Additional observations from a re-analysis of the deposited data

How the results depend on the processing

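SPRY1 and DUSP9 kept their direction and their call in all alternatives that tested them. By the ratio of mean FPKM, the log2 fold change was -2.19 for SPRY1, -0.73 for DUSP10, -0.40 for ETV1 and -0.48 for ZFP36L1. The falls of SPRY1 and DUSP10 were thus larger than by counts, and those of ETV1 and ZFP36L1 smaller. With DESeq2, 1739 genes passed in place of 2865, and 3 members in place of 5 were higher. With 10 counts in every library, 332 genes in place of 549 and 1 member in place of 2 passed with a fold change of at least 2. Leaving out each library gave 832 to 3779 genes with adjusted p under 0.05 and 323 to 617 with a fold change of at least 2. It gave 1 to 7 members higher and 2 to 10 lower, where most lower calls came without EV replicate 1. The other kinase and early response lists then held 11 to 38 calls in place of 27, and the median log2 fold change of the members ran from -0.102 to -0.043. Signs turned in genes that did not pass, over ranges of the log2 fold change of -0.114 to 0.049 (DUSP12), -0.051 to 0.070 (DUSP14), -0.102 to 0.008 (DUSP3), -0.174 to 0.060 (DUSP8), -0.212 to 0.195 (EGR1) and -0.172 to 0.082 (IER3) without single libraries. EGR1 was also at 0.011 with limma-voom. The cause of these shifts was not tested. The replicate block and no filter each added SPRY3 (adjusted p = 0.0363 and 0.0104, edgeR) and lost no member. Same-numbered libraries did not deviate together (correlation 0.007 over genes), so the numbers were not taken as pairs. With 2 libraries a group, the spread of any 1 gene rests largely on that of the others, and genes at or near the floor, such as EGR2 and EGR3, were not tested.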

Other observations

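Several values lie outside the comparisons above. The counts and the FPKM of DUSP28 and SPRED3 went opposite ways: the log2 fold change from counts was -0.19 for DUSP28 and -0.34 for SPRED3, and the ratio of mean FPKM gave 0.11 and 0.05 on the log2 scale. Neither passed the test. The counts of ETV4 were divided differently among its transcripts in the EV libraries: ENST00000538265 held 54.8 estimated counts in EV replicate 1 and 288.7 in EV replicate 2, while ENST00000393664 held 645.7 and 258.5, so values of its single transcripts were not compared. Among the other early response or ERK-responsive genes, some that passed lay in both directions. HBEGF, a ligand of the EGF receptor, was at 0.49 (standard error 0.07, adjusted p = 0.00158, edgeR). PTGS2, the inducible cyclooxygenase, was at 0.80 (standard error 0.13, adjusted p = 0.00309, edgeR). ERRFI1, a feedback inhibitor of the EGF receptor, was at -0.44 (standard error 0.07, adjusted p = 0.00163, edgeR). ATF3, a stress-induced factor, was at -0.92 (standard error 0.18, adjusted p = 0.00608, edgeR). These 4 genes were chosen after their values were seen.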
